A study of Mus musculus with 10 samples.

Results

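The genes described here make, break down, and restrain polyamines in 3 mouse skeletal muscles. They were chosen as a fixed list of 8 genes (Odc1, Amd1, Amd2, Srm, Sms, Sat1, Smox, and Oaz1) whose Ensembl identifiers were given symbols with a GRCm38 annotation, and all 8 were found among the 16112 genes in the files. RNA was sequenced from extensor digitorum longus (EDL), a fast muscle of the lower leg, from psoas, a fast muscle of the lower back and hip, and from soleus, a slow muscle of the calf. There were 3 EDL, 3 psoas, and 4 soleus libraries, all from wild-type mice of the strain B6C3Fe a/a-Ttnmdm/J, a strain kept for the mdm allele of the titin gene, for which these mice were wild type. No group was treated, so the muscles are compared with each other and not with a control. EDL 1 and psoas 1 came from males of 42 days, EDL 2 and psoas 2 from males of 54 days, and EDL 3 and psoas 3 from females of 44 days. Soleus 1 came from a male of 42 days, soleus 2 and 4 from females of 44 days, and soleus 3 from a mouse of 32 days whose sex the labels do not give. The labels hold 7 animal codes for the 10 libraries, of which 3 have a library of 2 muscles, so the libraries are not all independent animals. The study's methods give fewer mice than there are codes, and the number of independent animals is thus uncertain.

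Polyamines (putrescine, spermidine, and spermine) are small positively charged molecules that bind RNA and other nucleic acids and are needed for growth. Ornithine decarboxylase makes putrescine, and S-adenosylmethionine decarboxylase makes the aminopropyl donor with which spermidine synthase and spermine synthase extend it. Spermine oxidase and spermidine/spermine acetyltransferase lead the way back, and antizyme binds ornithine decarboxylase and sends it to the proteasome. Skeletal muscle holds both the synthesis and the breakdown route.

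Total counts per library ranged from 12737971 to 50431713, and every one of the 8 genes had at least 31 counts in every library. The depth therefore left none of them near the limit set by a count of 0. The authors had quality-trimmed the reads of EDL 1, EDL 2, psoas 1, and psoas 2 but not those of the other 6. In the study's alignment summary, psoas 1 and psoas 2 had the lowest shares of mapped reads, followed by EDL 1 and soleus 1. Psoas 1 also had the lowest RNA integrity number, a score of RNA quality. The part of mapping and RNA quality in the levels was not tested. Levels are given as normalized CPM, counts per 1000000 of the library total after edgeR's TMM scaling. Muscle fiber markers were present in every library, 8 of 8 measured, with a summed level of 75283 to 107503 normalized CPM in EDL, 111374 to 125568 in psoas, and 60327 to 62052 in soleus. The slow myosin gene Myh7 separated soleus (6836 to 13574 normalized CPM) from EDL and psoas (3.19 to 117).

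Amd1 (ENSMUSG00000075232) and Amd2 (ENSMUSG00000063953) both encode S-adenosylmethionine decarboxylase and lie on the minus strand of chromosome 10 (GRCm38), Amd1 at 40287458 to 40302186 and Amd2 at 35708675 to 35711892. The annotated Amd2 gene spans 3218 bases, all of them exon, whereas Amd1 spans 14729 bases with 3542 bases of exon. Of the 75-base windows in the Amd1 transcripts, 72.5% also occur in transcripts of another gene, chiefly in Amd2 (70.4%), and of those of Amd2, 79.2% do. The study's methods do not name how reads that match several genes were counted, so the split of reads between Amd1 and Amd2 is uncertain. Smox (chromosome 2, 131491496 to 131525922, plus strand) and Srm (chromosome 4, 148591503 to 148594993, plus strand) share no such window with another gene. Sms (chromosome X, 157443855 to 157492287, minus strand) shares 16.9% with its pseudogene Sms-ps and others, Oaz1 (chromosome 10, 80826656 to 80829290, plus strand) shares 17.0% with Oaz1-ps, and Odc1 (chromosome 12, 17544794 to 17551505, plus strand) shares 16.6% with 13 genes. For Sat1 (chromosome X, 155213132 to 155216449, minus strand) the share is 0.942%.

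The 250 bases upstream of the start site are shown for Amd1, Amd2, Smox, and Sms, the 4 genes whose levels differed between muscles by the test used below. They are from RefSeq (GRCm38.p6) and are written 5′ to 3′ on the strand of the gene. Capitals mark matches on either strand to the GC box (GGGCGG), the CCAAT box (CCAAT), and the E-box (CACGTG). RefSeq gives a pair of starts for Sms, and at the second of them the run of capitals holds 3 overlapping GC boxes.
Amd1, chr10:40302189-40302438, minus strand: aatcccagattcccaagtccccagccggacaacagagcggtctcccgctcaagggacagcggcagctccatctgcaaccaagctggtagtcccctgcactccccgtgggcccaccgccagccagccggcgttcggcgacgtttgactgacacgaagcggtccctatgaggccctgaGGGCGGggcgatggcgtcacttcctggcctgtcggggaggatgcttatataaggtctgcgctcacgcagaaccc
Amd2, chr10:35711892-35712141, minus strand: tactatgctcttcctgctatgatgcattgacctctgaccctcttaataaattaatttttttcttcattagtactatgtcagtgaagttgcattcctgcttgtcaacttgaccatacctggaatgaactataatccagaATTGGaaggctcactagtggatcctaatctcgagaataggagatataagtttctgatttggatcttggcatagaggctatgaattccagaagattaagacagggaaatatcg
Smox, chr2:131491612-131491861, plus strand: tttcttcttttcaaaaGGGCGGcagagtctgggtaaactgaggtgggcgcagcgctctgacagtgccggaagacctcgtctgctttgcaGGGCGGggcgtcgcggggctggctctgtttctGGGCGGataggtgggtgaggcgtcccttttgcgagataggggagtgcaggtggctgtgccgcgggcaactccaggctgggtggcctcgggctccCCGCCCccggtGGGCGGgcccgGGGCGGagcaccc
Sms start 1, chrX:157492288-157492537, minus strand: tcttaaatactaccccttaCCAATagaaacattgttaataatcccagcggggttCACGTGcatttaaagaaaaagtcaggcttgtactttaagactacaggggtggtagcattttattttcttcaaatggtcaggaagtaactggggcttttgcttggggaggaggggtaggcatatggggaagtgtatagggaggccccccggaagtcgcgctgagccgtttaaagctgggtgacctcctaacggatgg
Sms start 2, chrX:157491369-157491618, minus strand: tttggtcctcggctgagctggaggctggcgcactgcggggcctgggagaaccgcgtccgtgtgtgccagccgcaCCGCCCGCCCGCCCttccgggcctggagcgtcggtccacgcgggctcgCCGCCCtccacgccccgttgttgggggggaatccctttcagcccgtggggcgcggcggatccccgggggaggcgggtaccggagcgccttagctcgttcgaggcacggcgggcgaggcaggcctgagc
The Amd1 window held 1 GC box, 74 bases before the start, and had 64.4% G and C. The Amd2 window held 1 CCAAT box, 112 bases before the start, no GC box, and 37.6% G and C. Smox had 6 GC boxes and 68.0% G and C. Sms had 4 GC boxes at one start, and a CCAAT box and an E-box, 196 bases before the start, at the other. Of 32851 promoter windows of the same length, 32.7% held the GC box, 33.9% the CCAAT box, and 6.02% the E-box. A TATA box (TATAAA), found in 12.4% of all windows, and TGTTCT, a motif of steroid receptors found in 16.1%, were also searched on both strands. Neither matched exactly in the windows shown, and among the other members Sat1 held TGTTCT once, 191 bases before its start. Variants of these letters were not searched, such as the tatataag close to the start in the Amd1 window, so a TATA box of other letters would be missed. The windows of Odc1, Sat1, and Oaz1 held 4 GC boxes, 2 GC boxes, and 1 CCAAT box. These matches describe the letters in the windows and are not binding sites.

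S-adenosylmethionine decarboxylase was the most abundant enzyme transcript of the set and was highest in psoas. Amd1 had 350, 363, and 207 normalized CPM in EDL 1, 2, and 3, against 2449, 1962, and 283 in psoas 1, 2, and 3. In soleus 1 to 4 it had 195, 76.6, 155, and 84.2. Each soleus library lay below each EDL and psoas library, and psoas 3 lay within the EDL range while psoas 1 and 2 lay far above it. Per length, Amd1 had 85.7 ± 24.4 FPKM in EDL (normalized level per kilobase of exon, SD, n = 3), 446 ± 326 in psoas (n = 3), and 35.7 ± 16.4 in soleus (n = 4). In psoas its mean FPKM was above that of 99.4% of all genes.

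Amd2 moved with Amd1 in each library. It had 174.8, 175.3, and 100.02 normalized CPM in EDL 1 to 3, 1217, 984, and 135 in psoas 1 to 3, and 97.0, 35.7, 71.0, and 38.7 in soleus 1 to 4. The order of the muscles and the position of psoas 3 were those of Amd1. The ratio of Amd2 to Amd1 counts lay between 0.458 and 0.501 over the 10 libraries, while their summed level ranged from 112 to 3666 normalized CPM. The sum is unaffected where reads were only divided between these genes. It would change if shared reads were dropped, counted for both, or counted for a pseudogene. It was 457 ± 130 in EDL (SD, n = 3), 2343 ± 1706 in psoas (n = 3), and 188 ± 86.2 in soleus (n = 4).

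Odc1, which encodes the ornithine decarboxylase that makes putrescine, was likewise highest in psoas. It had 67.5, 58.2, and 53.8 normalized CPM in EDL 1 to 3, 473, 141, and 95.1 in psoas 1 to 3, and 82.7, 56.9, 97.0, and 62.1 in soleus 1 to 4. All psoas libraries lay above all EDL libraries, but psoas 3 fell just below soleus 3, and psoas 1 alone was over 3 times any other library. Per length, Odc1 had 17.4 ± 2.0 FPKM in EDL (SD, n = 3), 70.0 ± 61.5 in psoas (n = 3), and 21.6 ± 5.81 in soleus (n = 4).

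**Figure D1:**
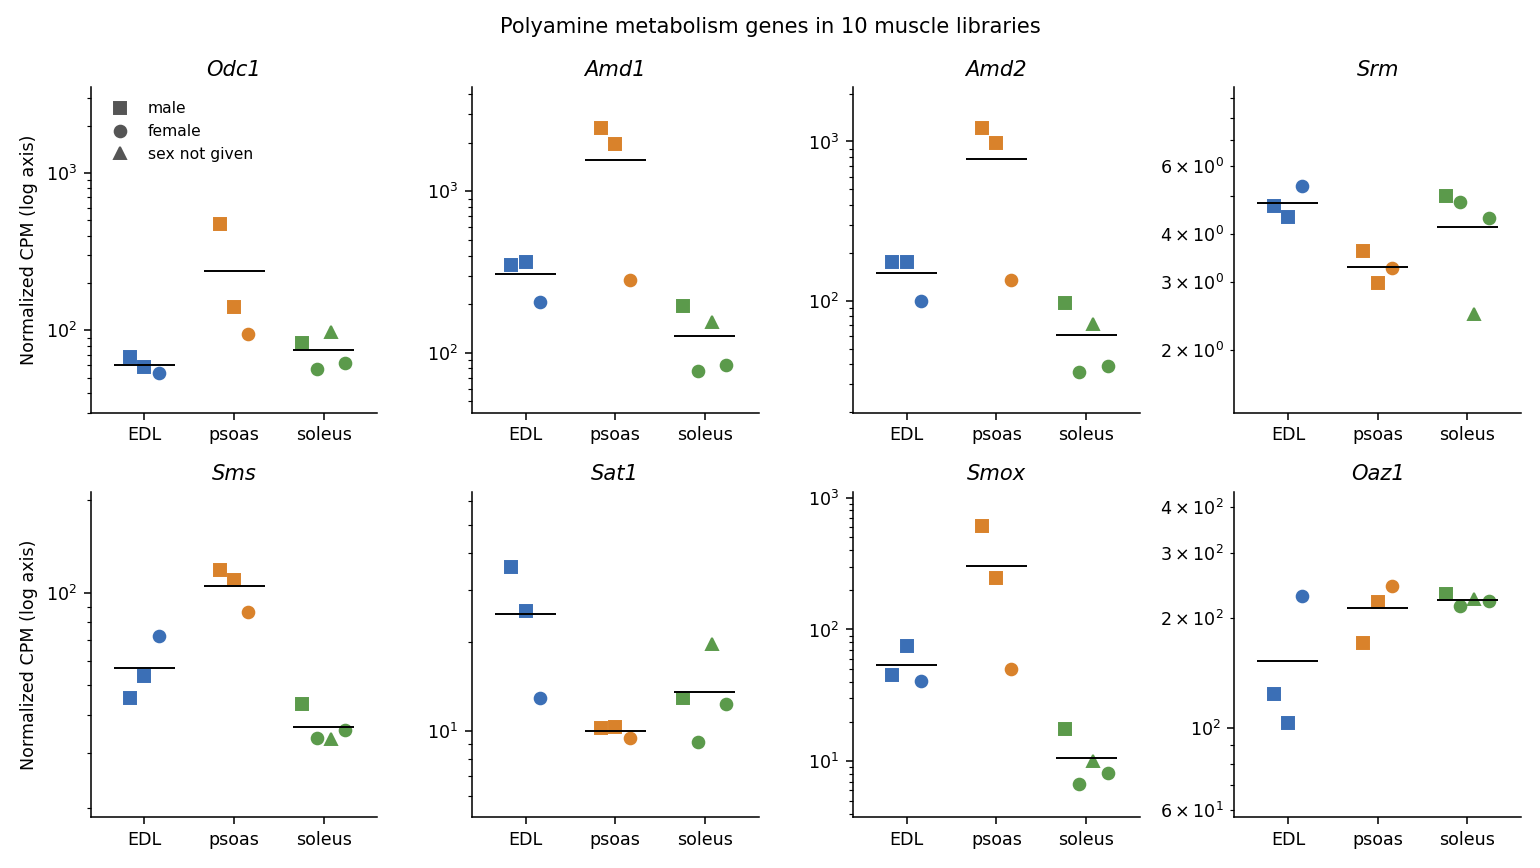
Normalized CPM (log axis, its range set for each gene) of the 8 genes in each of the 10 libraries, by muscle, with 1 point per library, the mean of each muscle as a line, and the sex given by the point's shape. In psoas the female library lies far below the 2 male ones for Amd1 (283 against 2449 and 1962), Amd2, and Smox, while Srm spans 2.47 to 5.33 and Oaz1 103 to 244 over all libraries.

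The synthases that build on putrescine behaved unlike each other. Sms, the gene of spermine synthase, had 45.3, 53.5, and 72.4 normalized CPM in EDL 1 to 3, 118, 110, and 86.6 in psoas 1 to 3, and 43.5, 33.7, 33.5, and 35.6 in soleus 1 to 4. The muscles did not overlap in Sms, with psoas highest and soleus lowest, and psoas 3 stood much closer to the other psoas libraries than it did for Amd1. Per length, Sms had 9.40 ± 2.29 FPKM in EDL (SD, n = 3), 17.5 ± 2.94 in psoas (n = 3), and 5.99 ± 0.799 in soleus (n = 4). Srm, the gene of spermidine synthase, was the least abundant of the 8 per length, with 2.98 ± 0.279 FPKM in EDL (SD, n = 3), 2.06 ± 0.208 in psoas (n = 3), and 2.56 ± 0.688 in soleus (n = 4). It was measured with 31 to 234 counts per library, and its psoas libraries (2.98 to 3.62 normalized CPM) lay below the EDL libraries (4.41 to 5.33) but within the soleus range (2.47 to 4.99).

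Smox, the gene of the oxidase that turns spermine back into spermidine, showed the widest range among the muscles. It had 45.5, 75.5, and 40.9 normalized CPM in EDL 1 to 3, 615, 245, and 49.99 in psoas 1 to 3, and 17.4, 6.76, 10.1, and 8.13 in soleus 1 to 4. Soleus lay below every EDL and psoas library, and psoas 3 again lay within the EDL range. Per length, Smox had 13.7 ± 4.88 FPKM in EDL (SD, n = 3), 78.7 ± 74.8 in psoas (n = 3), and 2.69 ± 1.23 in soleus (n = 4).

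Sat1 encodes the acetyltransferase that marks spermidine and spermine for breakdown or export, and it was highest in EDL. It had 35.9, 25.5, and 13.0 normalized CPM in EDL 1 to 3, 10.2, 10.3, and 9.42 in psoas 1 to 3, and 12.9, 9.15, 19.7, and 12.3 in soleus 1 to 4. Psoas lay below EDL without overlap, and EDL 3 lay within the soleus range. EDL 1 and 2 also had the highest sums of macrophage and fibroblast markers. The 6 macrophage markers summed to 145 and 160 normalized CPM in EDL 1 and 2, 69.2 in EDL 3, 26.3 to 55.4 in psoas, and 52.7 to 81.0 in soleus, and none of them was at 0 throughout a muscle. The 5 fibroblast markers summed to 1871 to 3351 in EDL, 588 to 905 in psoas, and 602 to 1195 in soleus, and the 6 tendon markers to 639 to 741, 30.3 to 80.2, and 80.9 to 415. Their part in the Sat1 levels was not tested, and in whole muscle fewer cells of a type and less RNA per cell cannot be told apart.

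Oaz1, the gene of antizyme, had its lowest values in EDL. It had 124, 103, and 229 normalized CPM in EDL 1 to 3, 170, 221, and 244 in psoas 1 to 3, and 232, 215, 224, and 222 in soleus 1 to 4. EDL 1 and 2 lay below all other libraries, EDL 3 lay among them, and soleus and psoas overlapped. Per length, the ratio of Odc1 to Oaz1 FPKM was 0.337 ± 0.139 in EDL (SD, n = 3), 0.954 ± 0.987 in psoas (n = 3), and 0.251 ± 0.0578 in soleus (n = 4). The psoas mean rested on psoas 1 (2.09), with 0.481 and 0.293 in psoas 2 and 3.

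Within a muscle, the order of the genes by mean FPKM was Amd1, Oaz1, Amd2, Odc1, Smox, Sms, Sat1, and Srm in EDL. In psoas it was Amd1, Amd2, Oaz1, Smox, Odc1, Sms, Sat1, and Srm, and in soleus it was Oaz1, Amd1, Odc1, Amd2, Sms, Sat1, Smox, and Srm. Most neighbors in these orders lay closer than the larger of their SDs. The exceptions were Amd1 above Oaz1, Amd2 above Odc1, and Sat1 above Srm in EDL, Sms above Sat1 and Sat1 above Srm in psoas, and Oaz1 above Amd1, Amd2 above Sms, and Sat1 above Smox in soleus.

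For the tests, all 10 libraries entered 1 model in edgeR (quasi-likelihood F-test), and the p-values were Benjamini-Hochberg adjusted over all 16112 genes. A gene was called where the adjusted p was below 0.01 and the fold change above 2, and a looser threshold with an adjusted p below 0.05 is given beside it. Nothing in the labels says that the libraries of a muscle were prepared independently beyond their animal codes. The p-values set each difference against the spread between these libraries. The model also treated libraries of different muscles with the same animal code as independent.

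Soleus and psoas were the pair with called genes. In this comparison 4 of the 8 genes were called, all lower in soleus (Amd1, Amd2, Sms, and Smox), against 2.71% of all genes called lower in soleus and 5.69% called in either direction. Amd1 and Amd2 share most of their windows and moved together, so they are not separate measurements in this or any other count of the 8. Smox fell by 4.85 ± 0.68 log2 units (SE, adjusted p = 0.000918), a level 28.8-fold lower in soleus. Amd1 fell by 3.61 (SE 0.60, adjusted p = 0.00247) and Amd2 by 3.68 (SE 0.62, adjusted p = 0.0025), 12.3-fold and 12.9-fold lower levels. Sms fell by 1.52 (SE 0.19, adjusted p = 0.000486), a 2.86-fold lower level. Odc1 had a log2 ratio of −1.67 ± 0.44 (SE, adjusted p = 0.0266) and was not called by edgeR or limma-voom but was by DESeq2 (0.00137). With it 5 of the 8 passed the looser threshold, against 9.70% of all genes, and the same number had an unadjusted p under 0.05, against 28.4%. Not called by any of the 3 tools were Sat1 (0.43), Srm (0.35), and Oaz1 (0.08). The median log2 fold change of the 8 genes was −1.59, beside 0.02 for all genes.

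The 4 calls did not rest equally on all libraries. Sms was called in all 21 alternative fits (adjusted p 2.44e-11 to 0.0067) and Smox in 20, the exception being the fit with read trimming as a covariate (adjusted p = 0.0109). Amd1 and Amd2 were called in 15 each. They were lost with the trimming covariate (adjusted p = 0.0388 for Amd1), with the replicate block (0.019), and without psoas 1 (0.0103), psoas 2 (0.0117), soleus 2 (0.0105), or soleus 4 (0.0104), and over these settings the adjusted p of Amd2 was 0.0104 to 0.0407. Without psoas 3, Odc1 was called as well (adjusted p = 0.00607). Among the untrimmed libraries, psoas 3 exceeded the mean of the 4 soleus libraries 4.71-fold for Smox, 2.37-fold for Sms, and 2.21-fold for Amd1, with no test for 1 library against 4.

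Libraries of the same animal code allow the muscles to be compared within an animal, without a test. In the animal of psoas 1 and soleus 1, a male, psoas exceeded soleus 35.3-fold for Smox, 12.5-fold for Amd1, 5.72-fold for Odc1, and 2.71-fold for Sms. In the animal of psoas 3 and soleus 4, a female, it did so 6.15-fold, 3.36-fold, 1.53-fold, and 2.43-fold. The direction was the same for these genes in both animals, the ratio for Sms was much alike, and the ratios for Smox, Amd1, and Odc1 were larger in the male. In the female animal of EDL 3 and soleus 2, EDL exceeded soleus 6.05-fold for Smox, 2.70-fold for Amd1, and 2.15-fold for Sms, and Odc1 was at a ratio of 0.945.

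**Figure D2:**
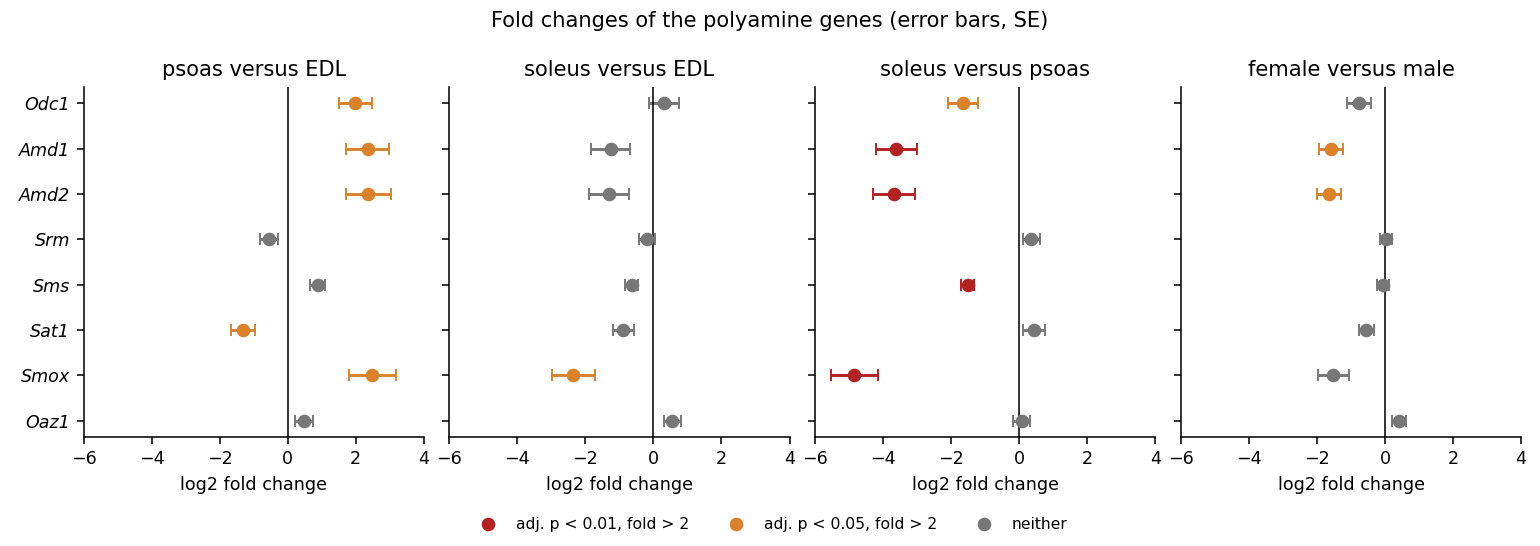
Log2 fold changes of the 8 genes in each comparison (points) with their SE (bars), colored by adjusted p and fold change. Only soleus versus psoas has called genes (Amd1, Amd2, Sms, and Smox, −1.52 to −4.85), while psoas versus EDL has 5 genes past the looser threshold.

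Between psoas and EDL, none of the 8 genes was called by edgeR, against 2.11% of all genes (340 genes, or 146 with the replicate number as a block). At an unadjusted p under 0.05 there were 6 of 8, against 29.0% of all genes, and DESeq2 called 2 (Odc1 and Sat1) and limma-voom 0. The looser threshold was passed by 5 of the 8, against 7.65% of all genes. These were Smox with a log2 ratio of 2.49 ± 0.69 (SE, adjusted p = 0.0398), Amd2 with 2.37 (SE 0.66, adjusted p = 0.0399), Amd1 with 2.35 (SE 0.64, adjusted p = 0.0385), and Odc1 with 1.98 (SE 0.49, adjusted p = 0.0261). The fifth, Sat1, went the other way with −1.32 (SE 0.34, adjusted p = 0.0323). Sms had 0.88 (SE 0.21, adjusted p = 0.022), Srm −0.54, and Oaz1 0.48. Libraries of psoas and EDL did not overlap for Odc1, Sms, Srm, and Sat1, 4 of 8, against 29.6% of all genes.

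For Amd1, Amd2, and Smox the difference between psoas and EDL moved with psoas 3. Among the 2 male libraries of each muscle, which were all trimmed, psoas exceeded EDL 6.19-fold for Amd1, 7.11-fold for Smox, and 4.89-fold for Odc1. Between EDL 3 and psoas 3, both female and untrimmed, these ratios were 1.37, 1.22, and 1.77. Without psoas 3, Amd1 and Amd2 were called, Amd1 with a log2 fold change of 2.85 (adjusted p = 0.00845), and Smox was at 2.99 (adjusted p = 0.0103). Without psoas 1, the change of Odc1 was 0.96 (adjusted p = 0.0576) in place of 1.98. Without EDL 3, Sat1 (−1.62, adjusted p = 0.0047) and Sms (1.08, adjusted p = 0.00545) were called. With sex as a covariate Amd1, Amd2, and Sat1 were called (adjusted p = 0.00823, 0.00785, and 0.00723). That fit left out soleus 3, whose sex is not given, and leaving out soleus 3 without the covariate gave 0 calls among the 8. With read trimming as a covariate, which splits the EDL and psoas libraries as sex does, 0 of the 8 were called (0.0174 to 0.179). With the replicate number as a block, Odc1 alone stayed past the looser threshold (1.74, adjusted p = 0.0479), and Amd2, Amd1, Sat1, and Smox had adjusted p of 0.0644 to 0.0824.

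Between soleus and EDL, none of the 8 genes was called by edgeR, against 5.77% of all genes, and DESeq2 and limma-voom called 0 as well. At an unadjusted p under 0.05 there were 5 of 8, against 35.0% of all genes. Smox had a log2 ratio of −2.35 ± 0.63 (SE, adjusted p = 0.0244) and was the only one past the looser threshold, against 11.5% of all genes. It was called in 3 of 21 alternative fits, the one with these 2 muscles alone (adjusted p = 0.00244) and those without psoas 1 (0.00981) or psoas 3 (0.00341). Sms had −0.64 (SE 0.19, adjusted p = 0.0383), Sat1 −0.89 (SE 0.31, adjusted p = 0.0678), Amd1 −1.26 (SE 0.57, adjusted p = 0.138), and Odc1 0.32 (SE 0.44, adjusted p = 0.641). Libraries did not overlap for Amd1, Amd2, Sms, and Smox, all lower in soleus, 4 of 8 against 14.3% of all genes. With read trimming as a covariate (EDL 1 and 2 were trimmed and no soleus library was), Amd1 went to −0.13 (adjusted p = 0.903), Amd2 to −0.15 (0.89), and Smox to −1.32 (0.207). Sat1 was called without EDL 3 (−1.19, adjusted p = 0.00804).

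**Figure D3:**
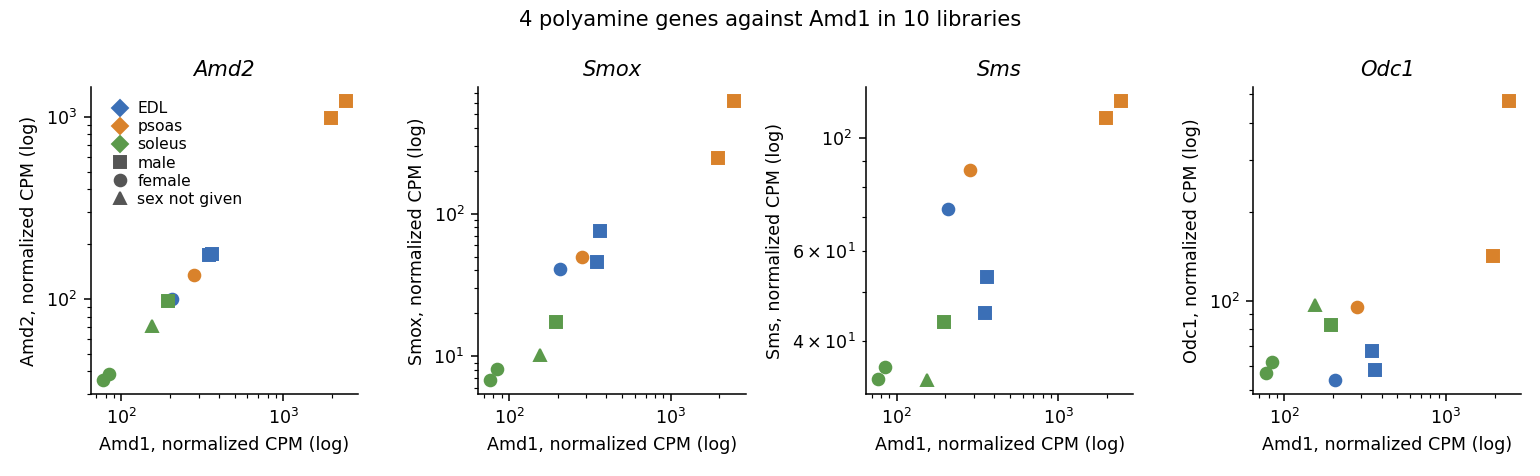
Normalized CPM of Amd2, Smox, Sms, and Odc1 (each on a log axis) against that of Amd1 (log axis) in the 10 libraries, with muscle as color and sex as shape. Amd2 lies on a line with Amd1 throughout (count ratio 0.458 to 0.501), and Smox follows from 6.76 in soleus 2 to 615 in psoas 1. For Odc1, psoas 1 (473) lies far above the other libraries (53.8 to 141).

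Over the 10 libraries, Pearson's r of log2 normalized CPM with Amd1 was 0.97 for Smox, 0.86 for Sms, 0.80 for Odc1, −0.08 for Sat1, −0.25 for Oaz1, and −0.36 for Srm. These libraries share muscles and animals, so the values describe them and were not tested. Among 12664 genes with a symbol and a mean of at least 1 CPM, those most like Amd1 were Amd2 (r = 0.9998) and the pseudogenes Amd-ps3 (0.996) and Amd-ps4 (0.99), and the same pseudogenes were most like Amd2. Of the 75-base windows of Amd1, 24.2% occur in Amd-ps3 and 18.1% in Amd-ps4, so reads of these genes may be counted for each other. For Sms the nearest were Pkm, the gene of a pyruvate kinase of muscle glycolysis (r = 0.99), Ppp1r14c (0.98), and C2cd2 (0.98). Pkm had 656 ± 123 normalized CPM in EDL (SD, n = 3), 1164 ± 179 in psoas (n = 3), and 400 ± 61.2 in soleus (n = 4). For Smox the nearest were Gm11185 (0.99), Rnf139 (0.98), and Gm8330 (0.98). Rnf139 spanned a narrow range, from 47.8 to 93.9 normalized CPM, where Smox spanned 6.76 to 615.

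The labels give both sexes in each muscle, and the 9 libraries of known sex were compared in an edgeR fit with muscle as a covariate. The females were all 44 days old and the males 42 or 54, and in EDL and psoas the male libraries were the trimmed ones, so sex, age, and trimming cannot be told apart. In the study's alignment summary, multiple alignments were also more frequent among the left reads of every male library than of every female one, soleus included. Among the right reads this held for the male libraries other than psoas 2, which lay below every female library. The study sequenced over several runs, which were not in the fit. The part of either in the levels of Amd1 and Amd2 was not tested. The sex-linked transcripts matched the labels in all 9. None of the 8 genes was called, against 0.639% of all genes, and 4 of 8 had an unadjusted p under 0.05, against 19.8%. DESeq2 called 2 (Amd1 and Amd2) and limma-voom 0. Amd2 with a log2 ratio of −1.65 ± 0.34 (SE, adjusted p = 0.0271) and Amd1 with −1.59 (SE 0.34, adjusted p = 0.0334) were past the looser threshold, both lower in females, against 2.15% of all genes. Smox had −1.52 (SE 0.45, adjusted p = 0.0985), Odc1 −0.77 (SE 0.36, adjusted p = 0.272), Sat1 −0.56, Oaz1 0.40, Sms −0.06, and Srm 0.02.

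Males lay above females in each of the 3 muscles for 5 of the 8 genes (Odc1, Amd1, Amd2, Sat1, and Smox), against 10.4% of all genes. For Amd1, Smox, and Odc1 the ratio of male to female means was largest in psoas. For Amd1 it was 1.73 in EDL (2 males, 1 female), 7.80 in psoas (2 males, 1 female), and 2.43 in soleus (1 male, 2 females). For Smox it was 1.48, 8.60, and 2.34, and for Odc1 1.17, 3.23, and 1.39. The difference between muscles in this contrast was tested with an interaction term, in a fit chosen after seeing the data. Amd1 differed by −2.19 on the log2 scale between psoas and EDL (SE 0.38) with an unadjusted p of 0.000374 but an adjusted p of 0.38, and no gene of the 16112 had an adjusted p under 0.01. At an unadjusted p under 0.05 there were 1049 genes, and no other tool was run for it. Sms went in opposite directions, with the female EDL library above both males and the female psoas library below both, and its difference was −0.96 (SE 0.32, unadjusted p = 0.0159, adjusted p = 0.76).

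Marker sums of other cell types also moved with sex. The 5 erythroid markers summed to 25.7 to 137 normalized CPM in the male libraries and 3.54 to 16.4 in the female ones, and the 6 macrophage markers to 48.5 to 160 against 26.3 to 69.2, with no marker of either list at 0 throughout a muscle. All erythroid markers but Alas2 are globin genes, and globin RNA had been removed from the libraries, so their sum also depends on what remained of it. Alas2 had 4.24 to 35.2 in males and 2.16 to 7.15 in females, overlapping over all muscles but higher in males within each. The part of these cell types in the values of the polyamine genes was not tested.

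Of 38 other genes of the pathway in 5 lists, 32 were measured. Oaz3, Agmat, Arg1, Arg2, Otc, and Mat1a were not analysed here. In soleus versus psoas 1 of the 32 was called higher and 2 lower, in psoas versus EDL 1 higher, in soleus versus EDL 1 higher, and in females versus males none by edgeR, DESeq2, or limma-voom, with 7 at an unadjusted p under 0.05. Over all genes the shares called were 5.69%, 2.11%, 5.77%, and 0.639% in the same order, and 19.8% had an unadjusted p under 0.05 between the sexes, so these counts are near the background. Their median log2 fold changes were −0.14, 0.29, 0.13, and 0.07.

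Of these 5 calls, 3 were of 2 genes for the salvage of methylthioadenosine, the by-product of spermidine and spermine synthesis. They were Mtap, called in soleus versus psoas, and Adi1, called in 2 comparisons. The other measured genes of that salvage, Mri1, Apip, and Enoph1, were not called between muscles by edgeR. Mtap, the gene of the phosphorylase that opens this salvage, had 1.83 to 4.06 normalized CPM in soleus against 8.76 to 15.8 in psoas, and fell by 2.13 ± 0.31 log2 units (SE, adjusted p = 0.00116), a call made in all 21 alternative fits. Adi1, the gene of a later dioxygenase of the same route, fell by 1.13 ± 0.23 log2 units from psoas to soleus (SE, adjusted p = 0.00765), with 10.2 to 10.8 normalized CPM in soleus and 19.0 to 28.7 in psoas. It was also higher in psoas than in EDL, with a log2 ratio of 1.36 ± 0.25 (SE, adjusted p = 0.00948). The calls of Adi1 were made in 12 and 9 of 21 alternative fits. That in soleus versus psoas was lost without any one psoas or soleus library (adjusted p 0.0141 to 0.0327), without EDL 2 (0.0118), and with the replicate block (0.0318). That in psoas versus EDL was lost without any one library other than EDL 3 (0.0119 to 0.0475). It was also lost with these muscles alone (0.0435), the replicate block (0.0246), and thinned counts (0.0105). Of the 10 measured genes of the methionine list, 2 fell and 8 were not called in soleus versus psoas, against 2.71% of all genes called lower and 5.69% called in either direction. In that comparison Mat2a, whose product makes S-adenosylmethionine, had −1.29 (SE 0.29, adjusted p = 0.0125).

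Among 9 measured regulators, oxidases, and transporters, Paox and Atp13a3 were called. Paox, the gene of the peroxisomal oxidase of acetylated polyamines, had 3.9 to 4.22 normalized CPM in soleus and 1.16 to 1.70 in psoas, and was higher in soleus by 1.51 ± 0.23 log2 units (SE, adjusted p = 0.00143), a call lost with trimming as a covariate (0.0128) and with the replicate block (0.0102). It thus differed in the direction opposite to Smox. Atp13a3, the gene of a polyamine transporter, had 25.0 to 45.7 normalized CPM in soleus, 29.1 to 40.0 in psoas, and 12.2 to 20.3 in EDL, and was higher in soleus than in EDL by 1.25 (SE 0.25, adjusted p = 0.00602), a call lost without EDL 1 (0.0397), EDL 2 (0.0373), or any one of soleus 1, 2, and 4 (0.0119 to 0.0187), with the replicate block (0.0314), and with trimming as a covariate (0.0556). The antizyme gene Oaz2 and the antizyme inhibitor genes Azin1 and Azin2 were not called in any muscle comparison, with log2 fold changes of −0.51 to 0.83. Of 6 measured genes of ornithine and arginine supply, 4 of eIF5A and its hypusine modification, which uses spermidine, and 3 transcription regulators, none was called between muscles by edgeR, DESeq2, or limma-voom. At an unadjusted p under 0.05 in edgeR there were 4, 2, and 3 of these 13 in psoas versus EDL, soleus versus EDL, and soleus versus psoas, against 29.0%, 35.0%, and 28.4% of all genes. Eif5a itself had log2 fold changes of 0.37, 0.40, and 0.03 in the same order.

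**Figure D4:**
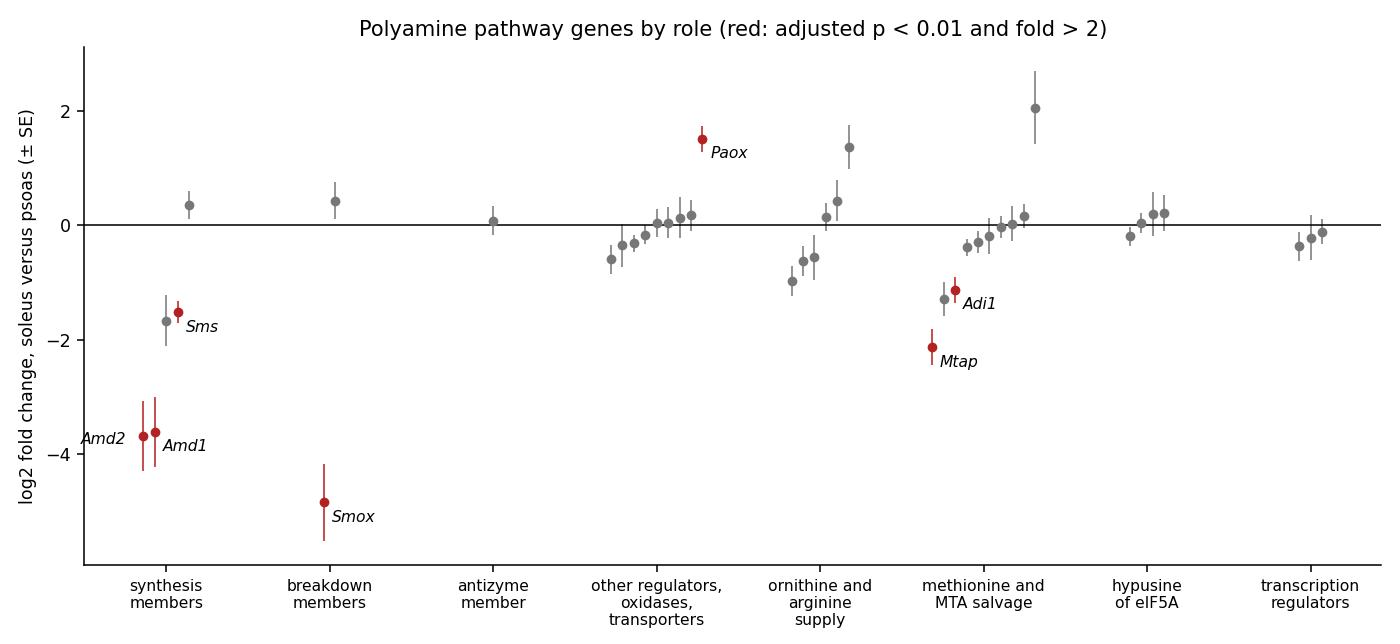
Log2 fold changes (points) with SE (bars) in soleus versus psoas for the 8 genes and the 32 other measured genes of the pathway, by role, with called genes in red. The 4 called members lie at −1.52 to −4.85, and 3 of the other genes are called, Mtap (−2.13) and Adi1 (−1.13) lower and Paox (1.51) higher in soleus.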

How the data were processed

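Total RNA of 10 mouse muscle samples was sequenced by the authors as stranded libraries after removal of ribosomal and globin RNA. Per the labels and the methods, low-quality libraries were trimmed with Trimmomatic 0.32, read pairs were aligned with TopHat2 2.1.1 to GRCm38, and reads were counted per gene with GenomicFeatures and GenomicAlignments. The authors deposited raw counts per gene, 1 table per library, after keeping genes with 10 or more reads in 3 or more libraries, which all 16112 genes met. Strand setting and the counting of reads with multiple alignments are not given in the sources used here, and such reads could shift levels of genes with close copies (Amd1, Amd2).

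Symbols, positions, and exon lengths came from GENCODE M21 (GRCm38), with 16032 genes matched, and promoters from RefSeq (7 of 8 members). Counts were tested with edgeR 4.0.16 (quasi-likelihood, TMM, no covariate between muscles). FPKM were computed with DESeq2 1.42.0 and tables with Python 3.11.15. The scripts were tested on simulated data. Alternatives were DESeq2's Wald test, limma-voom (limma 3.58.1), DESeq2's size factors, upper-quartile scaling, a minimum of 1 CPM in 3 libraries, and fits of 2 muscles. Others were covariates for sex (without soleus 3), trimming, or replicate number, and animal as a random effect in limma-voom. Thinned counts, other thresholds, and each library left out were also used.

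EDL and psoas libraries of the same number had correlations of deviations from the muscle means of 0.278, 0.124, and 0.505, each over 0.1. Unlike numbers reached similar values, with 0.297 for EDL 1 and psoas 2 and 0.279 for EDL 2 and psoas 1. No EDL and psoas library share an animal code, and number 3 also marks the female, untrimmed libraries. Whether the numbers pair these muscles is thus not shown, and the replicate block is only an alternative fit. Soleus numbers did not pair as a set, although soleus 1 and psoas 1 are from the same animal. Total counts were 12737971 to 50431713 per library. The members and the lists were chosen with earlier results of these data known. Named genes are the 8 members, list genes by count with values for those called, the muscle fiber, macrophage, fibroblast, tendon, and erythroid markers, and the 3 genes most correlated with each called member. Mat2a, Eif5a, Oaz2, Azin1, Azin2, Mri1, Apip, and Enoph1 were named after their values were seen. One gene of the transcription regulator list is not reported here.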

Additional observations from a re-analysis of the deposited data

How the results depend on the processing

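The counts of all genes called moved by over 1.5 times in several settings. From 340 in psoas versus EDL, 929 in soleus versus EDL, 917 in soleus versus psoas, and 103 in females versus males, they went to 1095, 1520, 1382, and 454 with DESeq2, and to 1233, 1853, 1563, and 419 at an adjusted p under 0.05. Read trimming as a covariate gave 605, 371, and 566 for the muscles, and the replicate block 146, 586, and 539. Psoas versus EDL also gave 153 with these muscles alone and 865 with sex as a covariate, and the sexes gave 68 with limma-voom and 19 with EDL and psoas alone. Without single libraries the ranges were 61 to 963, 385 to 1511, 493 to 964, and 12 to 151.

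Of the 8 polyamine genes, 0 were called in psoas versus EDL, but 2 with DESeq2, 3 with sex as a covariate, 5 at an adjusted p under 0.05, and 0 to 2 without single libraries. In soleus versus EDL 0 were called, but 1 with these muscles alone, 1 at an adjusted p under 0.05, and 0 to 1 without single libraries. In soleus versus psoas 4 were called, but 2 with the replicate block (Smox and Sms), 1 with the trimming covariate (Sms), and 2 to 5 without single libraries. In females versus males 0 were called, but 2 with DESeq2, 1 in soleus alone (Amd2, with 1 male library), 2 at an adjusted p under 0.05, and 0 without any single library. Apart from these, the replicate block changed no call of a member. Of the soleus numbers, only that of soleus 1 marks an animal shared with its namesake (psoas 1).

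Log2 fold changes near 0 changed sign. Oaz1 in soleus versus psoas (0.08) went to −0.059 with sex and −0.38 with trimming as a covariate, and to −0.081 to 0.19 without single libraries (lowest without psoas 1). In females versus males Srm (0.02) went to −0.021 with upper-quartile scaling, −0.016 with the CPM minimum, −0.15 in soleus alone, and −0.10 to 0.10 without single libraries. Sms (−0.06) went to 0.078 in EDL and psoas alone and to −0.39 to 0.097 without single libraries, and Oaz1 (0.40) to −0.13 in soleus alone. Of the log2 fold changes recomputed under these settings, 604 kept direction and call, 13 changed sign, 18 gained a call, and 13 lost one. Depth limited Srm most, with 31 counts in soleus 3.
A muscle left with 2 libraries, or a sex left with 1 in a muscle, was assumed to vary like the others.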

Other observations

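Soleus 3, whose sex the labels do not give, entered no comparison of the sexes. Its sex-linked transcripts were those of the male libraries, with 0 counts of Xist and 186 normalized CPM of Ddx3y, against 134 to 180 in males and at most 0.264 in females. It had 97.0 normalized CPM of Odc1, 155 of Amd1, 71.0 of Amd2, and 10.1 of Smox. For Amd1, Amd2, and Smox it lay between the male soleus library (195, 97.0, and 17.4) and both female ones (76.6 and 84.2, 35.7 and 38.7, 6.76 and 8.13), and for Odc1 it lay above the male one (82.7). At 32 days it was from the youngest mouse.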
